A study of Mus musculus with 2 samples.

Results

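This set holds 9 genes that modify, fold and trim procollagen: the prolyl 4-hydroxylase alpha subunits P4ha1, P4ha2 and P4ha3, the lysyl hydroxylases Plod1, Plod2 and Plod3, the collagen chaperone Serpinh1, and the procollagen C-proteinase enhancers Pcolce and Pcolce2. They were chosen by name, as every non-control probe set (a group of probes on an Affymetrix array that reads 1 transcript) whose platform annotation gives exactly 1 gene and that gene is one of the 9. All 9 genes were found, with 14 probe sets, among 18193 genes with such a probe set. The samples were 1 culture of unsorted marrow cells from Cpdm mice and 1 from wildtype mice, each grown for 10 days with ascorbic acid (50 µg/ml) plus 10 mM β-glycerophosphate, a supplement mix that drives marrow stromal cells towards mineralising osteoblasts. Cpdm is chronic proliferative dermatitis, a spontaneous mouse mutant without working SHARPIN, which is part of the enzyme complex that builds linear ubiquitin chains. How many mice gave the cells of each culture, and their age and sex, is not stated in the labels. Each culture was read on 1 array as linear MAS5 signals in arbitrary units. No culture was repeated, so no error between replicates and no test can be given, all differences describe these 2 arrays, and a gene is counted as higher or lower by a fixed size of 2-fold.

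Collagen alpha chains are modified in the endoplasmic reticulum while they are being made. Prolyl 4-hydroxylase converts proline to hydroxyproline, which holds the triple helix together at body temperature. Lysyl hydroxylases convert lysine to hydroxylysine, which carries sugars and forms cross-links between collagen molecules. These enzymes need iron, oxygen, 2-oxoglutarate and ascorbate, which is why ascorbate is added to osteoblast cultures. Serpinh1 encodes HSP47, which binds the folded triple helix until it reaches the Golgi. After secretion the C-terminal propeptide is cut off by BMP1 and related proteinases, a step that the enhancer proteins of Pcolce and Pcolce2 speed up. Osteoblasts secrete type I collagen in bulk and use all of these steps.

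The procollagen genes were lower or near equal in the Cpdm culture, and none was at least 2-fold higher. Pcolce2, P4ha2, P4ha1 and Plod2 were at least 2-fold lower, and the other 5 genes lay between. That is 4 of 9 genes, against 5.98% of the 14055 measured genes that were at least 2-fold lower; 5.84% of those genes were at least 2-fold higher. The median log2 ratio of Cpdm over wildtype was -0.98 over the 9 genes and 0.03 over all measured genes. Of the 9 log2 ratios, 7 were below 0, as were 47.6% of those of all measured genes. All 14 probe sets lay above the floor in both arrays, which is the 40th percentile of each array (18.5 for Cpdm and 18.7 for wildtype). Of the 14, 12 were lower in Cpdm, and no share over all probe sets is given here to set beside that count. As 5 of the 9 genes have 2 probe sets each, the 14 are not separate results.

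**Figure D1:**
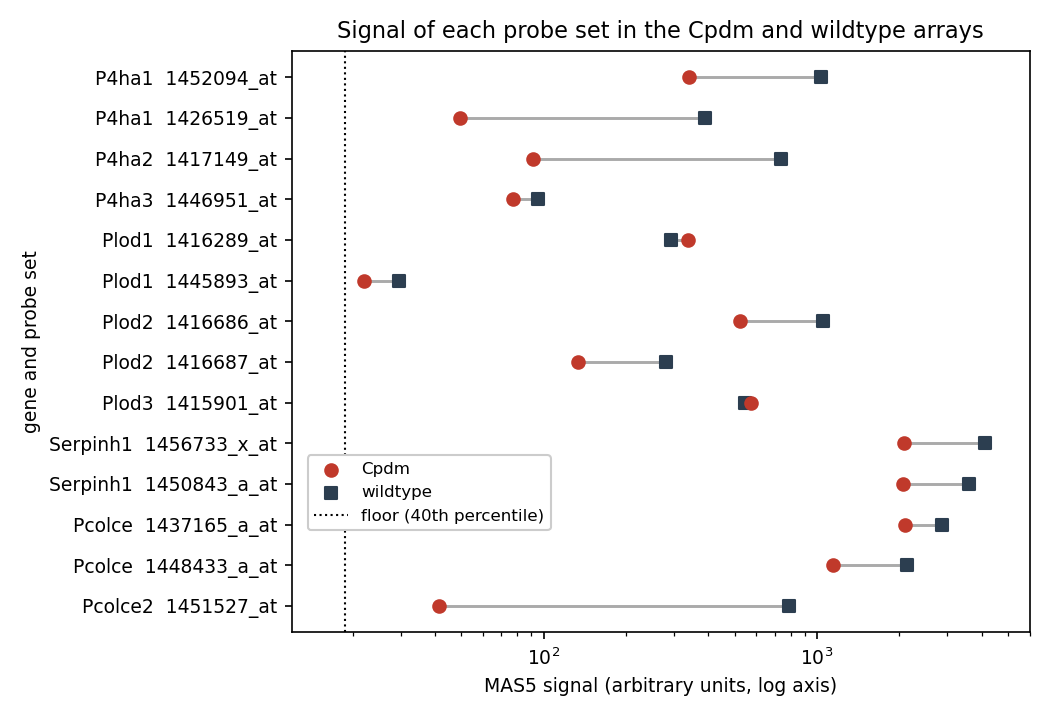
MAS5 signal (arbitrary units, log axis) of the 14 probe sets of the 9 genes in the Cpdm array (circles) and the wildtype array (squares), with 1 array per genotype and therefore no error bars. The Cpdm circle lies left of the wildtype square for 12 probe sets, and the widest gap is that of Pcolce2, at 41.3 in Cpdm and 789 in wildtype.

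The arrays set a scale for these differences. The 18 bacterial and phage spike-in probe sets, added in equal amounts, had log2 ratios between -0.22 and 0.20. Different probe sets of one gene disagreed as well, by 0.32 log2 units for a single probe set (robust SD, 5250 genes); neither measure covers differences between mice or cultures. The cultures also differed in ways that run alongside every result here. Xist, an RNA made from the inactive X chromosome, had a signal of 1113 in Cpdm and 247 in wildtype. By the probe sets with the highest signal, the Y-linked genes Eif2s3y, Kdm5d and Uty read 80.6, 54.6 and 42.9 in Cpdm, against 249, 168 and 162 in wildtype. The 18S ribosomal RNA controls had log2 ratios between -3.75 and -2.37. The 3′ to 5′ signal ratio of the actin control was 1.92 in Cpdm and 1.61 in wildtype. Sharpin itself read 162 in Cpdm and 197 in wildtype by one probe set and 107 and 120 by the other; a frameshifted transcript can still be made and read by the probes, so these levels do not check the genotype. The part of sex and RNA quality in the results below was not tested.

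Among the prolyl 4-hydroxylase alpha subunits, which carry the catalytic site, P4ha1 and P4ha2 were lower in Cpdm and P4ha3 was near equal. P4ha1 is the main form in most cells. P4ha1 had a signal of 339 in the Cpdm culture and 1037 in the wildtype culture, which is 3.05-fold lower. Its second probe set read 49.5 in Cpdm and 389 in wildtype, which is 7.85-fold lower. Both probe sets of P4ha1 were thus lower in Cpdm, but their log2 ratios of -1.61 and -2.97 differ by 1.36, so the size of the P4ha1 difference is uncertain by 2.57-fold. P4ha2, a form known from chondrocytes and bone-forming cells, had a signal of 91.4 in Cpdm and 736 in wildtype, which is 8.05-fold lower by its 1 probe set. In order of log2 ratio, P4ha2 stood 87th and P4ha1 329th from the lowest of the 14055 measured genes. P4ha3 read 77.5 in Cpdm and 95.6 in wildtype, a log2 ratio of -0.30 that is within the disagreement between probe sets. The alpha subunits need P4hb, protein disulfide isomerase, as their beta subunit, and P4hb read 2004 in Cpdm and 2922 in wildtype. That is 1.46-fold lower for the shared partner, beside 3.05-fold and 8.05-fold lower for P4ha1 and P4ha2.

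The promoters of genes that were lower in Cpdm are shown here beside that of a gene that was near equal. P4ha1, P4ha2 and Plod2 are known targets of the hypoxia-inducible factor, so the stretches were searched on both strands for the core letters of its response element, ACGTG and GCGTG; overlapping matches were each counted. The sequences are from RefSeq on build GRCm38.p6, written 5′ to 3′ along the gene, and end just before the first annotated base of the gene. Capitals mark these cores and their reverse complements.
P4ha2, chr11:54100674-54100923, plus strand: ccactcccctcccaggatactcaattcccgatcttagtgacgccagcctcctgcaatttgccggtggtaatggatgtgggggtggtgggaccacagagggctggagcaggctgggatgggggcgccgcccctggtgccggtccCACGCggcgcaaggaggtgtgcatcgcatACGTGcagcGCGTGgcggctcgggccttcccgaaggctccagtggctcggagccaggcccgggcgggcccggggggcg
P4ha1, chr10:59323046-59323196, plus strand: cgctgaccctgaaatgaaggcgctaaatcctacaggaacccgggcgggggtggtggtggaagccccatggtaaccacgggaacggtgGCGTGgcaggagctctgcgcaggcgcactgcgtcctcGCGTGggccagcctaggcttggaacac
Pcolce2, chr9:95637378-95637627, plus strand: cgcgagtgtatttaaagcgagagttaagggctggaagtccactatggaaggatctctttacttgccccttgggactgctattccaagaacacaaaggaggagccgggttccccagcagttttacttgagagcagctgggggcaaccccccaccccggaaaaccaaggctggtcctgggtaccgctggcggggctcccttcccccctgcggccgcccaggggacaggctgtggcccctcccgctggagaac
Serpinh1, chr7:99353240-99353489, minus strand: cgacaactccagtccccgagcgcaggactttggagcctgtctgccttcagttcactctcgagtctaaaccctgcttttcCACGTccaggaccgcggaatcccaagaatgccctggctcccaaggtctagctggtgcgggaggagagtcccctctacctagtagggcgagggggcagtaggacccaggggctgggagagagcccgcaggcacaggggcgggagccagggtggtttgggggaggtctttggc
Plod3, chr5:136986769-136987018, plus strand: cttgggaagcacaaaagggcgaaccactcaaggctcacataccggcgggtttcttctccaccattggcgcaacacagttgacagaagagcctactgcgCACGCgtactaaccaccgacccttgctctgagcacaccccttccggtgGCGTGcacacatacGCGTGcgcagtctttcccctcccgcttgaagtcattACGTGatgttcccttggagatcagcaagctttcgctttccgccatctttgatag
Promoter windows were found for 8 of the 9 genes; Plod2 was not matched. Over the 250 bases before the listed start site, P4ha2 held 1 ACGTG and 2 GCGTG, and P4ha1 held the same numbers, of which the 2 GCGTG lie in the stretch printed. Plod3, near equal between the cultures, held 1 ACGTG and 3 GCGTG. Of the windows not printed, P4ha3, also near equal, held neither core, and Plod1 held 1 GCGTG. Pcolce held 1 GCGTG, which does not lie wholly before the first annotated base of the gene. Serpinh1 held 1 ACGTG, whereas Pcolce2, with the largest difference of the 9 genes, held neither core. In all, 6 of the 8 windows held at least 1 of the cores, as did 38.6% of 32851 promoter windows of that length. Both cores contain CG, and the 8 windows hold between 55.6% and 70% G or C. The 32851 windows were not matched to them in base content, so the shares do not show an excess of the cores. ACCACA, the core letters bound by the osteoblast factor family RUNX, with its reverse complement TGTGGT, was in the P4ha2 window alone among the 8 and in 14% of all windows. These are matches of letters and show no binding.

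Of the lysyl hydroxylases, Plod2 was lower in Cpdm, while Plod1 and Plod3 were near equal. Plod2 encodes the enzyme that hydroxylates the telopeptides of collagen and so sets the type of cross-link found in bone. Plod2 had a signal of 522 in the Cpdm culture and 1048 in the wildtype culture, which is 2.01-fold lower. The second Plod2 probe set read 134 in Cpdm and 281 in wildtype, which is 2.10-fold lower. The log2 ratios of the Plod2 probe sets, -1.00 and -1.07, differ by 0.07, the closest agreement of the 5 genes with a pair of probe sets. Plod1, which acts on lysines of the triple helix, read 338 in Cpdm and 293 in wildtype, a log2 ratio of 0.21. Its other probe set read 21.9 in Cpdm and 29.5 in wildtype, near the floor and in the opposite direction, so no direction is given for Plod1. Plod3, whose product also adds sugars to hydroxylysine, read 574 in Cpdm and 543 in wildtype, a log2 ratio of 0.08. That value lies inside the range of the spike-ins.

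Serpinh1, the HSP47 gene, had a signal of 2078 in Cpdm and 4112 in wildtype, which is 1.98-fold lower. Its other probe set read 2071 in Cpdm and 3598 in wildtype, or 1.74-fold lower. Both Serpinh1 probe sets were lower in the Cpdm array, and the gene lies just inside the 2-fold limit that Plod2 just passes, so the limit separates near-equal differences here. The first Serpinh1 probe set ends in _x_at, a type that may also read related transcripts, and its wildtype signal is near the highest signal of the arrays, 5156, where array signals can be compressed. Compression was not tested.

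The enhancers of propeptide removal differed unequally. Pcolce2 had a signal of 41.3 in Cpdm and 789 in wildtype, which is 19.1-fold lower and 21st from the lowest of all measured genes. The Cpdm value of Pcolce2 is 2.23 times the floor, in a range where MAS5 signals are noisy and the size of the fold is uncertain; Pcolce2 was read by 1 probe set. Pcolce, the widely expressed relative, read 2097 in Cpdm and 2860 in wildtype, which is 1.36-fold lower. Its other probe set read 1141 in Cpdm and 2136 in wildtype, or 1.87-fold lower. Both Pcolce probe sets were lower in Cpdm and neither reached 2-fold. The log2 ratios were -4.26 for Pcolce2 and -0.45 for Pcolce.

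**Figure D2:**
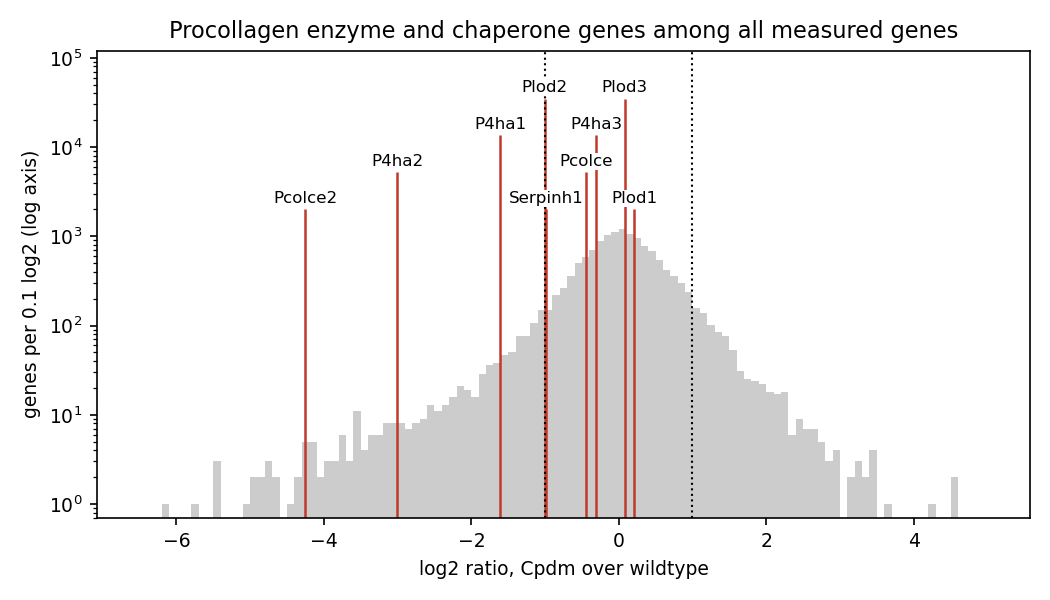
Distribution of the log2 ratio of Cpdm over wildtype for 14055 measured genes (grey bars, genes per 0.1 log2 on a log axis), with the 9 procollagen genes as red lines and 2-fold as dotted lines. Pcolce2 at -4.26 and P4ha2 at -3.01 lie in the lower tail, while Plod3 at 0.08 and Plod1 at 0.21 lie in the centre.

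Transcripts of the prolyl 3-hydroxylase family and its partner proteins were mostly lower in Cpdm. The prolyl 3-hydroxylation complex makes a rarer modification in the same compartment, and the modification itself was not measured. The list also holds relatives, so its count and median do not describe that modification alone. Of 6 measured genes of that list, 5 were at least 2-fold lower and none was at least 2-fold higher, beside 5.98% lower and 5.84% higher among all measured genes, and the median log2 ratio was -1.77. P3h1, the enzyme whose loss causes brittle bone disease in people, read 109 in Cpdm and 487 in wildtype, which is 4.48-fold lower, and 6.56-fold lower by another probe set. Crtap, the helper protein in that complex, read 782 in Cpdm and 2356 in wildtype, which is 3.01-fold lower. P3h4, a related protein without enzyme activity, read 262 in Cpdm and 1085 in wildtype, which is 4.15-fold lower. P3h3 read 74.5 in Cpdm and 212 in wildtype, 2.85-fold lower, and P3h2 was below the floor in Cpdm, at 10.4 against 71.5, or at least 3.87-fold lower. Ppib, the cyclophilin B gene, was the member that did not differ by 2-fold, at 2619 in Cpdm and 2695 in wildtype by one probe set and 2061 and 2666 by the other. Cyclophilin B sits in the complex with the P3h1 and Crtap proteins and also folds many other secreted proteins.

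Among other folding and glycosylation genes, 1 of 4 measured members was at least 2-fold lower, beside 5.98% of all measured genes. Fkbp14, a prolyl isomerase that acts on collagen, read 432 in Cpdm and 906 in wildtype, which is 2.10-fold lower. P4hb, Colgalt1 and Tmem38b lay between, with a list median of -0.40 on the log2 scale. Colgalt1 adds galactose to hydroxylysine, and it was 1.19-fold lower in Cpdm by the probe set used and 1.59-fold lower by the other. Tmem38b encodes an ion channel of the endoplasmic reticulum, and its 4 probe sets went both ways, with log2 ratios between -0.48 and 0.24, so no direction is given. Colgalt2 was below the floor in both arrays, and Fkbp10 was not analysed here.

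The export of procollagen from the endoplasmic reticulum and the regulator Creb3l1 were represented together by 6 genes. Of these, 3 were at least 2-fold lower, among them Creb3l1, and none was at least 2-fold higher. The median log2 ratio of the 6 was -0.90, and the shares of all measured genes are the 5.98% and 5.84% above. Creb3l1, a membrane-bound transcription factor of osteoblasts that activates type I collagen genes, read 171 in Cpdm and 1028 in wildtype, which is 6.01-fold lower. The vesicle coat genes Sec23a and Sec24d read 573 and 343 in Cpdm, against 1345 and 795 in wildtype, and were 2.35-fold and 2.32-fold lower. Mia3, which loads procollagen into the vesicles, was 1.50-fold lower, with 337 in Cpdm and 503 in wildtype. Its other probe sets above the floor had log2 ratios of -0.31 and 0.07. Klhl12 and Mia2 had log2 ratios of -0.13 and -0.15, and Mia2 was below the floor in Cpdm. Of the propeptide proteinases, 3 of 6 genes were measured and none passed 2-fold by the probe set used; Tll2 was below the floor in both arrays, and Adamts2 and Adamts14 were not analysed here. Bmp1, the C-proteinase that the enhancers act on, read 181 in Cpdm and 320 in wildtype, or 1.77-fold lower. Another Bmp1 probe set, below the floor in Cpdm, read 18.2 in Cpdm and 53.9 in wildtype and was at least 2.91-fold lower. Tll1, a relative of Bmp1, passed the floor in the Cpdm array alone, with 25.0 in Cpdm and 8.81 in wildtype.

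The collagen chains on which these enzymes work differed in both directions. Of 11 measured fibrillar chain genes, 7 were at least 2-fold lower, 1 was at least 2-fold higher and 3 fell short of either limit, beside 5.98% lower and 5.84% higher among all measured genes; the median log2 ratio was -1.22. The 7 were Col1a1, Col2a1, Col5a1, Col5a2, Col11a1, Col11a2 and Col24a1, between 2.12-fold and 13.6-fold lower by the probe sets used. Col3a1 was the chain that was at least 2-fold higher, at 3080 in Cpdm and 1505 in wildtype. Col5a3 lay just short of that limit, at 94.6 in Cpdm and 49.1 in wildtype, or 1.93-fold higher. For Col1a2, the partner of Col1a1 in type I collagen, the probe sets disagreed: they were 1.01-fold, 2.04-fold and 7.15-fold lower. The 9 processing genes and the 11 chains thus had medians of -0.98 and -1.22; the difference between them was not tested.

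**Figure D3:**
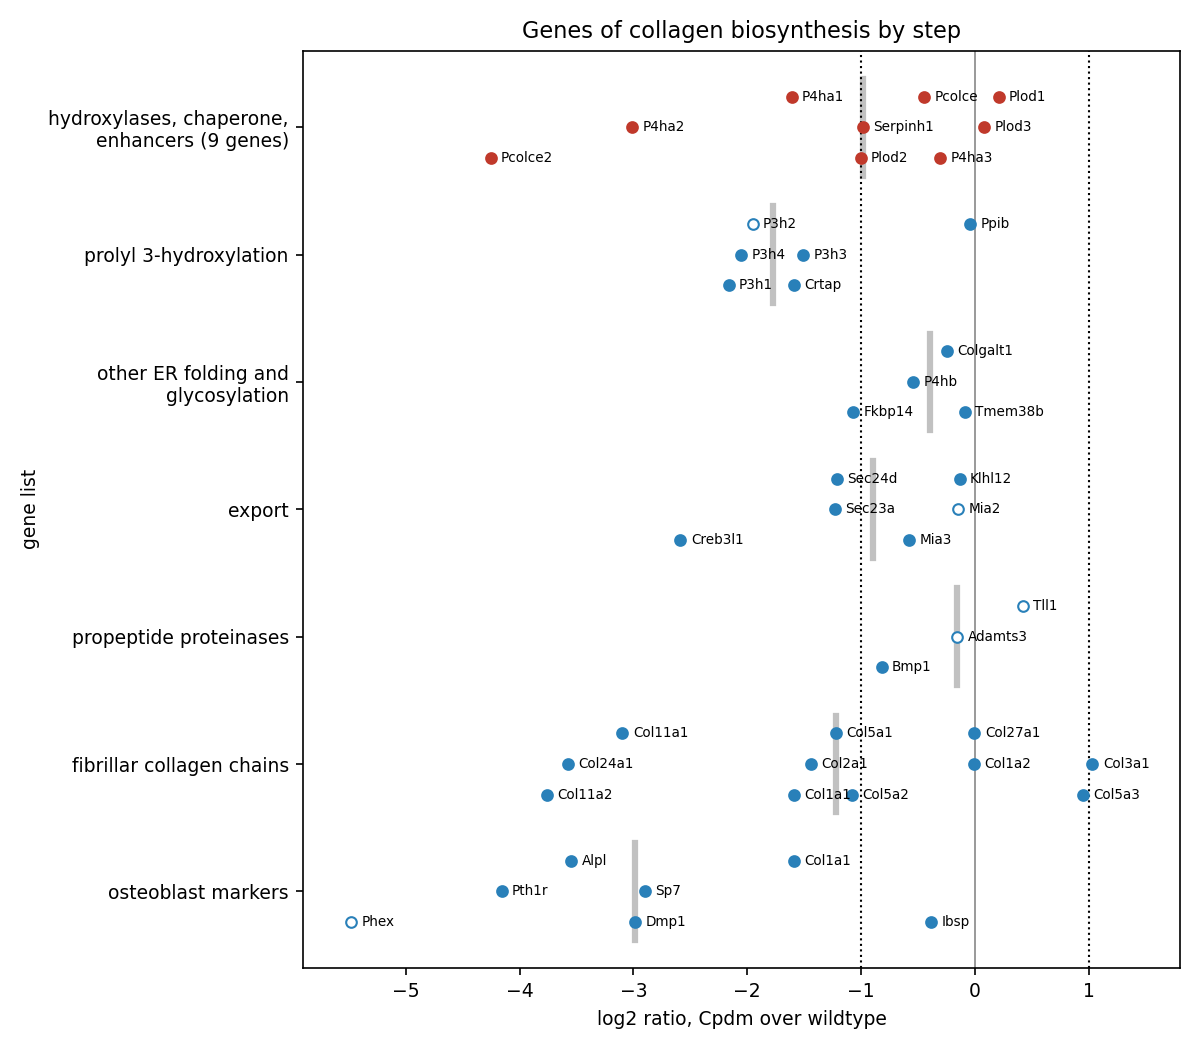
Log2 ratio of Cpdm over wildtype for each measured gene, grouped by step of collagen biosynthesis with osteoblast markers at the bottom; red marks the 9 genes, open circles mark genes at the floor in 1 array, grey bars are medians and dotted lines are 2-fold. The genes of the prolyl 3-hydroxylation list except Ppib lie together between -2.16 and -1.51, and the fibrillar chains spread from -3.76 to 1.03. Creb3l1, a transcription factor, is placed under export.

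Markers of cell types differed between the cultures too, and their counts stand beside 5.98% at least 2-fold lower and 5.84% at least 2-fold higher among all measured genes. Sums below add the signals of different probe sets, so the brightest genes decide them. Of 7 measured osteoblast markers, 6 were at least 2-fold lower in Cpdm, with sums of 4910 in Cpdm and 14748 in wildtype, and 1751 and 10618 without Ibsp; Runx2, Bglap and Spp1 were not analysed here. The 6 were Col1a1, the osteoblast factor gene Sp7 (7.46-fold lower), the alkaline phosphatase gene Alpl (11.7-fold), the parathyroid hormone receptor gene Pth1r (17.9-fold), the osteocyte matrix gene Dmp1 (7.91-fold) and Phex, which was below the floor in Cpdm and at least 44.7-fold lower. Ibsp, the bone sialoprotein gene, was 1.31-fold lower by the probe set used and 6.20-fold lower by its other one. In these bulk cultures, fewer cells of a type and less RNA per cell cannot be told apart.

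Of 5 macrophage markers, 1 passed 2-fold upwards in Cpdm and none had a log2 ratio under 0, with sums of 8934 in Cpdm and 6183 in wildtype. The 1 was Marco, a scavenger receptor gene, at 162 in Cpdm and below the floor in wildtype. Adgre1 lay just short of the limit, at 2407 in Cpdm and 1228 in wildtype, or 1.96-fold higher. Csf1r, the receptor gene for the macrophage growth factor, was 1.37-fold higher by the probe set used, and 2.38-fold and 2.18-fold higher by its others. Of 5 stromal fibroblast markers, Cd248 and Col3a1 passed 2-fold upwards in Cpdm and Pdgfra downwards, and Cd248 was below the floor in wildtype. Their sums were 3758 in Cpdm and 1892 in wildtype, but 679 and 387 without Col3a1. Of 3 measured smooth muscle markers 2 passed 2-fold upwards, Tagln by 4.66-fold and Cnn1 by 4.60-fold, with sums of 5885 in Cpdm and 2696 in wildtype, and 2305 and 495 without Acta2.

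Of 5 chondrocyte markers, Comp, a cartilage matrix gene, was 15.4-fold lower and Col2a1 was 2.72-fold lower. Sox9 and Col9a1 had log2 ratios of 0.52 and 0.63 by the probe sets used, with Col9a1 below the floor in wildtype. By another probe set of each, below the floor in Cpdm, the log2 ratios were -0.38 and -0.17. The sums of the 5 chondrocyte markers were 225 in Cpdm and 1151 in wildtype, but 170 and 305 without Comp. The 3 measured adipocyte markers lay between, with sums of 513 in Cpdm and 603 in wildtype. B cell, T cell and neutrophil markers were dim where measured. The B cell gene Ms4a1 read 28.1 in Cpdm and 37.3 in wildtype, and the T cell gene Cd3e read 25.7 and 30.4. The neutrophil gene Ngp read 33.6 in Cpdm and 49.6 in wildtype, and Ltf, below the floor in Cpdm, was at least 2.06-fold lower. The endothelial gene Kdr read 75.7 in Cpdm and 97.9 in wildtype. Cd79a, Cd3g, Cd2, Camp, Pecam1, Cdh5, Tek, Myh11 and the erythroid gene Hba-a1 were below the floor in both arrays. The part of the cell mix in the procollagen differences was not tested.

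With 2 arrays, a gene's pattern is no more than a pair of signals, and likeness was taken as the distance between such pairs on the log2 scale, over the genes whose signals both passed the floor. Nearest to Pcolce2 were Vldlr, at 43.2 in Cpdm and 772 in wildtype, and Pcsk6, at 48.1 and 826. Nearest to P4ha2 were Fxyd1, at 90.6 in Cpdm and 725 in wildtype, and Galnt3, at 103 and 693. Nearest to P4ha1 were Bicc1, at 339 in Cpdm and 962 in wildtype, and Sec31a, at 359 and 943. Nearest to Plod2 were Irs1, at 522 in Cpdm and 1078 in wildtype, and Tmem33, at 523 and 1015. Signals of different probe sets are not on a common scale, so this describes the arrays only.

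**Figure D4:**
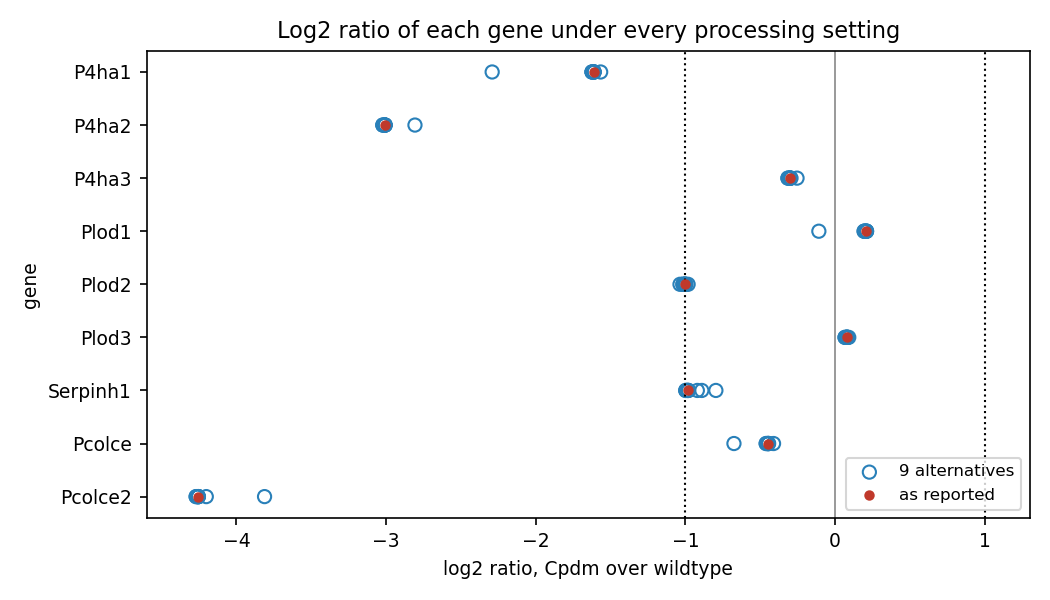
Log2 ratio of Cpdm over wildtype of each of the 9 genes as reported (red) and under 9 other choices of floor, scaling, probe set and pseudocount (open circles), with dotted lines at 2-fold. P4ha1 spans -2.29 to -1.57 and Pcolce2 spans -4.27 to -3.81, and Plod2 spans the 2-fold line, from -1.04 to -0.98.

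P4ha1, P4ha2 and Pcolce2 stayed at least 2-fold lower under all 9 other settings. Plod2 stayed so under 7 of them, and its log2 ratio ranged from -1.04 to -0.98. Serpinh1, Pcolce and P4ha3 stayed below 0 and short of 2-fold under all 9. Plod3 stayed above 0 under all 9, and Plod1 had a log2 ratio of -0.11 when its probe sets were averaged.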

How the data were processed

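Gene expression was measured in 1 Cpdm and 1 wildtype culture. Biotin-labelled cRNA was made from 5 µg of total RNA, per the labels' protocols. The authors deposited linear MAS5 signal intensity values for 45101 probe sets, and the submitters' processing notes name GCOS 1.4 and MAS5. Trimmed of 2% of values at each end, both arrays averaged 100, as scaling of each array to 1 target gives; for the target, background settings and detection calls the sources used here give nothing. The depth of an array has no count, and the number of arrays limits the precision.

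Signals were used as deposited, with values under the 40th percentile of each array set to that floor. Of 45037 non-control probe sets, 34945 name 1 gene, 932 several and 9160 are unnamed here; none of the 932 names one of the 9 genes. Where a gene had several probe sets, the one with the highest log2 signal averaged over both arrays was used, and a gene counted as measured unless both signals were under the floor. The comparison is the log2 ratio of Cpdm over wildtype with a 2-fold rule; a fold against a signal at the floor is written as "at least". The table names no genome build, and RefSeq sequences are on GRCm38.p6. The steps were tested on simulated data. Python 3.11.15, numpy 2.4.6 and pandas 2.3.3 were used. Alternatives were 3 floors, 3 scalings, 2 probe set rules and a pseudocount of 16.

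The genes and lists were chosen with earlier results of these data known. Named were the 9 genes, Sharpin, members of the pathway and osteoblast lists past 2-fold (the 2 largest where none passed) and the 2 nearest genes to each of the 9 genes that passed 2-fold. P4hb, Ppib, Colgalt1, Tmem38b, Mia3, Col1a2, Slc23a2, Vegfa, Pgk1, Slc2a1, Adm, Xist, the Y-linked genes, Ibsp and the cell type markers were added after their values were seen. So were Mia2, Klhl12, Col5a3, Ldha, Bnip3, Pdk1, Ankrd37 and Car9.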

Additional observations from a re-analysis of the deposited data

How the results depend on the processing

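With no floor, 1741 genes were at least 2-fold higher and 1885 at least 2-fold lower in Cpdm, and with the floor at the 20th percentile 1265 and 1397. Averaging probe sets gave 543 higher. More and dimmer genes enter with a lower floor. For the 9 procollagen genes, the count at least 2-fold lower was 4 as reported and between 3 and 4 over the 9 alternatives, without Plod2 under quantile normalization and with the pseudocount of 16; the count at least 2-fold higher was 0 throughout. Their median log2 ratio lay between -1.00 and -0.80. P4ha1 moved to -2.29 when its probe sets were averaged and Pcolce2 to -3.81 with the pseudocount. No paired analysis was possible because each genotype has 1 array. No spread between animals, cultures or RNA preparations can be given, dim signals such as those of Pcolce2 and P3h2 in Cpdm are noisy, and bright ones such as Serpinh1 may be compressed, which was not tested.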

Other observations

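The oxygen-sensing prolyl hydroxylases use the same cofactors on hypoxia-inducible factor instead of collagen, and none of the 4 measured genes passed 2-fold, beside 11.8% of all measured genes that did so either way, with a median log2 ratio of -0.23. The largest differences among them were Egln3, at least 1.64-fold lower with 12.3 in Cpdm and 30.2 in wildtype, and Egln1, 1.28-fold lower. Of 4 genes of ascorbate transport and recycling, with a median log2 ratio of 0.41, 1 passed 2-fold, beside 5.84% of all measured genes at least 2-fold higher: Glrx, the glutaredoxin gene, was at least 2-fold higher, at 322 in Cpdm and 143 in wildtype, but its other probe set was 1.58-fold higher. Slc23a2, the ascorbate transporter of most cells, read 380 in Cpdm and 307 in wildtype.

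Of 10 measured hypoxia-induced genes, 1 was at least 2-fold lower and none was at least 2-fold higher, beside 5.98% and 5.84% of all measured genes, with a median log2 ratio of -0.26. The lower one was Ndrg1, at 124 in Cpdm and 837 in wildtype, which is 6.74-fold lower; 3 other probe sets that passed the floor in each array were between 9.66-fold and 13.4-fold lower. Vegfa, the vascular growth factor gene, read 264 in Cpdm and 491 in wildtype, and was 3.80-fold lower by another probe set. The glycolysis gene Pgk1 was near equal by the probe set used, at 1456 in Cpdm and 1361 in wildtype, and its other probe sets had log2 ratios of 0.50 and 0.49. The glucose transporter gene Slc2a1 was 1.43-fold higher, and Adm, a peptide hormone gene, was 1.39-fold higher by the probe set used and 1.09-fold by the other. Ldha, Bnip3 and Pdk1 went the other way, at 1.60-fold, 1.55-fold and 1.49-fold lower by the probe sets used. Other Pdk1 probe sets above the floor were 1.31-fold and 2.17-fold lower. Ankrd37 and Car9 had log2 ratios of 0.05 and 0.25.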
